A study of Mus musculus with 8 samples.

Results

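The regions described here were the γ-H2AX peaks of Hmga2 wild-type mouse embryonic fibroblasts (MEF) that coincided with an ATM peak and with no HMGA2 peak. They were chosen by overlap of 3 deposited peak lists, with at least 1 bp shared with an ATM peak and none with an HMGA2 peak. The rule took 3153 of 124947 γ-H2AX peaks, which is 2.52% (95% Wilson interval 2.44 to 2.61%), and these are called ATM-sharing peaks below. They touched 3139 of the 119570 ATM peaks. They were set against the 117725 γ-H2AX peaks that touched neither an ATM nor an HMGA2 peak, called unshared peaks. The remainder were 3874 γ-H2AX peaks that touched HMGA2 alone and 195 that touched both lists. The series holds 8 chromatin immunoprecipitation sequencing (ChIP-seq) libraries, for HMGA2, γ-H2AX, ATM and input in Hmga2 wild-type and Hmga2 knockout MEF, and the 3 wild-type antibody libraries were used. All cells were C57BL/6 fibroblasts from embryonic day 15.5 at passages 2 to 4, with no further treatment named. The knockout and input libraries were not analysed here. Each antibody had 1 library, so no test over samples was possible, and intervals cover counting error only.

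γ-H2AX is the histone variant H2AX phosphorylated at its C-terminal serine, the residue named S139 in the labels. ATM is a kinase that is activated at DNA double-strand breaks and phosphorylates H2AX, and the mark can spread along chromatin away from the break. γ-H2AX has also been described at transcribed genes without added damage. HMGA2 is a high mobility group protein that binds the minor groove of AT-rich DNA through AT-hooks, is abundant in embryonic fibroblasts and falls off in most adult tissues.

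Where an ATM-sharing peak lay at a promoter, the bases can be read from RefSeq windows (GRCm38.p6, the assembly of the mm10 coordinates) that run from 250 bases before to 50 after a start. Such a window was touched by 0.983% of ATM-sharing peaks (31 peaks) and by 0.827% of unshared peaks. The difference was 0.157 percentage points, with a Newcombe interval of −0.138 to 0.569 that held 0. The ATM-sharing peaks touched 38 such windows of 35 genes, 21 of them protein-coding. The 5 shown have the longest stretch common to the γ-H2AX and the ATM peak among named protein-coding genes, and each is written 5′ to 3′ on the strand of the gene with that common stretch in capitals. Gm4275, a predicted gene on the opposite strand from Ate1, shares the Ate1 stretch.
Atp6v0e (chr17:26676146-26676445, plus strand): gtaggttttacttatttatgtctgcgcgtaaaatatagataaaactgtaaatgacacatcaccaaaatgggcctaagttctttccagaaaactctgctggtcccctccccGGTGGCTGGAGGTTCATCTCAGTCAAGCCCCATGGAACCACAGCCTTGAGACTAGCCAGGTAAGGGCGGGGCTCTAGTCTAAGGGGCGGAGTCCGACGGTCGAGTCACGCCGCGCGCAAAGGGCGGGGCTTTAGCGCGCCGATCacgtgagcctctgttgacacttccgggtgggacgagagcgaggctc
Ate1 (chr7:130520320-130520619, minus strand): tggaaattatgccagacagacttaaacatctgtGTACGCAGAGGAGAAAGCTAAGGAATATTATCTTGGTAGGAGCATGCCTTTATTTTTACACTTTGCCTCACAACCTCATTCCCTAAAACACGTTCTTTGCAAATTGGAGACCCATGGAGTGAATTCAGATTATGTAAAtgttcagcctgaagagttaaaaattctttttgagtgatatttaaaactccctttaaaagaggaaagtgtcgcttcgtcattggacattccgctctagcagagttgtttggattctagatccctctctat
Ints14 (chr9:64960680-64960979, plus strand): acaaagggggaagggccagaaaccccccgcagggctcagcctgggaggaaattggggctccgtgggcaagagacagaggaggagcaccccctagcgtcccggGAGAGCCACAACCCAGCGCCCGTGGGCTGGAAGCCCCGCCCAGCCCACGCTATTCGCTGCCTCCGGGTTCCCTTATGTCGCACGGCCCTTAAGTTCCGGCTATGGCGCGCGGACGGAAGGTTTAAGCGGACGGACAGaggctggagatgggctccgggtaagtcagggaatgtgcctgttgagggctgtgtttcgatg
Bahcc1 (chr11:120232697-120232996, plus strand): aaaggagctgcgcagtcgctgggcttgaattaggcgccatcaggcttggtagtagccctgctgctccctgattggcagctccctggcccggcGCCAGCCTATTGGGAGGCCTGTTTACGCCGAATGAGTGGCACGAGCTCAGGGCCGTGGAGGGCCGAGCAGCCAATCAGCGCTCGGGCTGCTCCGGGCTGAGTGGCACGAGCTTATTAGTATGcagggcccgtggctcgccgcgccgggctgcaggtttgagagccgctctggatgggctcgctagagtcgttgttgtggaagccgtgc
Gtf2a1 (chr12:91590438-91590737, minus strand): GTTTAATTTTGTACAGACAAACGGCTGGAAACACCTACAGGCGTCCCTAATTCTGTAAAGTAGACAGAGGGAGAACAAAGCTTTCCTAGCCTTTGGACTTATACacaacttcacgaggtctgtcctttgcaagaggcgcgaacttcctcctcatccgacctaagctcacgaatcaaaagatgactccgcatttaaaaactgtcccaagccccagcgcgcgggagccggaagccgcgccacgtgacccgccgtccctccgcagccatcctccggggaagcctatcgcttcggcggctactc
Atp6v0e encodes a membrane subunit of the vacuolar proton pump, and 144 of the bases shown were common to both peaks. Ate1 encodes the enzyme that attaches arginine to protein N-termini, and 138 bases were common. Ints14 encodes a subunit of the Integrator complex, which processes nascent RNA, with 137 common bases. Bahcc1 encodes a chromatin protein with a BAH domain, with 122 common bases. Gtf2a1 encodes a subunit of the general transcription factor TFIIA, and its 104 common bases lie at the upstream edge of the window. These windows ranged in G+C content from 38.3% at Ate1 to 64.7% at Ints14 and Bahcc1, so the promoters with a common stretch included both AT-rich and GC-rich DNA.

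Over all 38 windows the median G+C content was 51.2%, against 54.0% in the 1094 windows touched by unshared peaks and 52.7% in all 32817 windows. Of short motifs sought on both strands, none contained in another, CCGGAA stood in 13 of the 38 windows (34.2%, 21.2 to 50.1%), in 22.8% of the windows at unshared peaks and in 14.9% of all windows. GGGCGG stood in 31.6% of windows at ATM-sharing peaks, in 37.9% at unshared peaks and in 35.6% of all. CCAAT stood in 42.1%, 43.1% and 37.4% of the same sets, and TATAAA in 7.89%, 11.2% and 13.6%. The intervals of the 38 windows were wide and each held the share at unshared peaks. The 38 windows were touched by 31 peaks and some of them overlap, so the same bases can count more than once. The 2 printed windows with CCGGAA and GGGCGG together were those of Atp6v0e and Ints14.

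ATM peaks were densest at the centres of the γ-H2AX peaks and did not stop at their edges. Among γ-H2AX peaks without HMGA2, centres of ATM peaks lay at 1128 per 100 bp of distance within 25 bp of the γ-H2AX centre and at 1010 per 100 bp between 25 and 50 bp. The density was 970 per 100 bp at 50 to 100 bp, 737 at 100 to 150 bp and 805 at 150 to 200 bp. It was 712 between 200 and 500 bp, 648 between 500 and 1000 bp and 631 between 1000 and 2000 bp. The density was thus highest in the first 100 bp and stayed above the outermost level up to 1000 bp. The profile covers all γ-H2AX peaks without HMGA2, whether or not they touched ATM. The rule takes the ATM-sharing peaks from the overlaps near the centre, so the profile is a description.

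**Figure D1:**
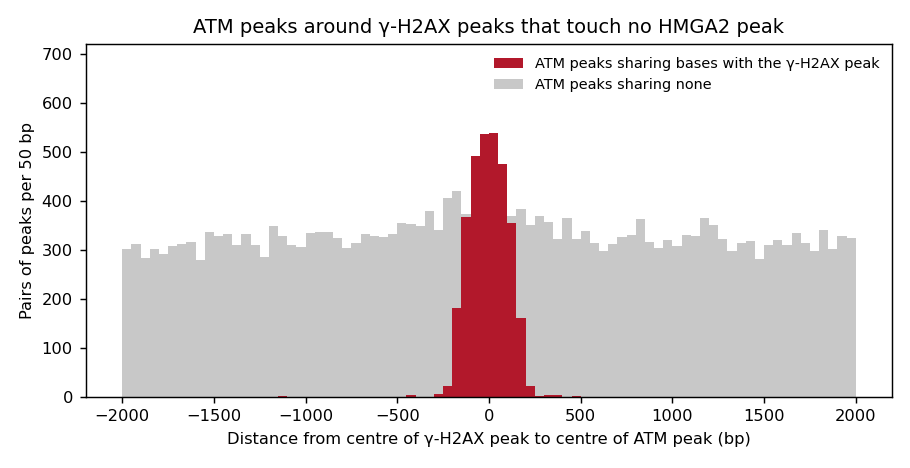
Number of pairs of peaks (vertical axis, per 50 bp) by signed distance in bp from the centre of a γ-H2AX peak that touches no HMGA2 peak to the centre of an ATM peak. Red bars are ATM peaks that share bases with the γ-H2AX peak and grey bars those that share none; the bars are highest within 100 bp of 0 and level off at the sides.

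Within the ATM-sharing peaks the common stretch had a median of 98 bp and ranged from 1 to 1553 bp. The centres of both peaks lay a median of 74.5 bp apart. In 1975 peaks (62.6%) the common stretch covered at least 50% of the shorter peak, and in 449 (14.2%) one peak lay wholly inside the other. Only 14 peaks touched 2 ATM peaks. At the edge of the rule, 135 peaks shared 1 to 10 bp with ATM and had a median width of 169 bp and a median score of 24.2. The 157 unshared peaks whose nearest ATM peak began 0 to 9 bp away had a median width of 168 bp and a median score of 24.0. The peaks on either side of that edge were therefore alike in width and score.

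The score of a peak is the authors' own value, −10 times the log10 of the peak-calling p, and it describes a peak within its list and is no amount of binding. Most ATM-sharing peaks lay close to the authors' minimum of 20 in both lists. Their γ-H2AX scores had a median of 23.9 and a highest value of 157.9, against a median of 23.6 and a highest value of 90.3 among unshared peaks. Their ATM scores had a median of 24.0 and a highest value of 409.2. Both scores reached 30 in 89 peaks (2.82%), 40 in 22 and 50 in 8. Across all 3153 peaks Spearman's rho between the scores was 0.010, and it was 0.27 over the 89 peaks with both scores of at least 30. Peaks are not replicates and those 89 were picked on the same scores, so both values are descriptions.

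**Figure D2:**
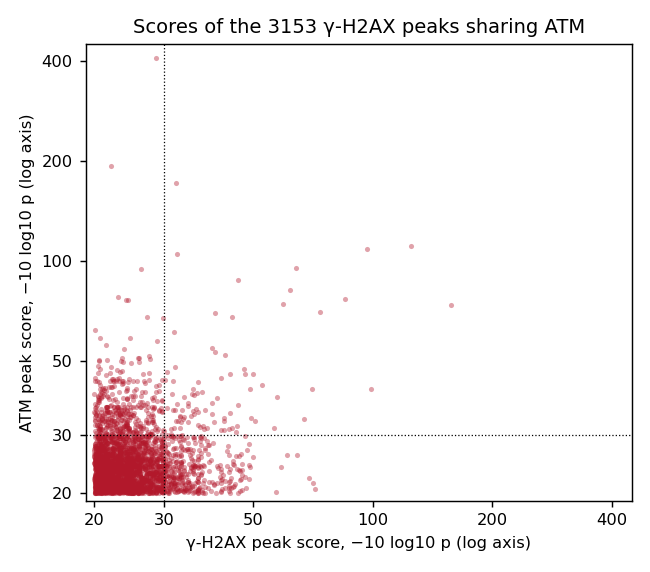
Each point is 1 of the 3153 ATM-sharing γ-H2AX peaks, with its γ-H2AX score (horizontal) and the score of its ATM peak (vertical), both as −10 log10 p on log axes; dotted lines mark 30. Most points crowd at the lower left near 20, 89 lie past both lines, and single points with high ATM scores sit at low γ-H2AX scores.

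ATM-sharing peaks were a little wider, and a few were much wider. Their median width was 171 bp, against 168 bp for unshared peaks. Peaks over 500 bp made up 0.951% of them (30 peaks), against 0.0552% of unshared peaks (65 peaks), and scores of 50 or more 0.761% (24 peaks) against 0.307%. The share of γ-H2AX peaks that were ATM-sharing was 2.23% at widths up to 150 bp, 2.28% at 151 to 170 bp, 2.55% at 171 to 190 bp, 2.78% at 191 to 250 bp and 5.54% above 250 bp. By score it was 2.36% from 20 to 22, 2.45% from 22 to 25, 2.50% from 25 to 30, 3.08% from 30 to 40 and 4.59% from 40. A wider peak has more bases with which to meet another, so the rule itself uses width. The widest ATM-sharing peak covered 1589 bp inside the non-coding gene Gm40237 on chromosome 4 (chr4:118547187-118548775), with a γ-H2AX score of 28.6 and the highest ATM score, 409.2. The 269 common bases of this peak that lie in a promoter window repeat a short unit in tandem, so read placement there is uncertain. The next widest, 1460 bp, lay in 2700054A10Rik on chromosome 17 with an ATM score of 193.2 and a γ-H2AX score of 22.1.

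The ATM-sharing peaks ranked highest by the lower of their 2 scores lay mostly away from protein-coding promoters. The first was 190 bp wide on chromosome 13 (chr13:116192884-116193073), 38749 bp from the pseudogene Rpl34-ps2, with a γ-H2AX score of 125.1 and an ATM score of 110.9, and its nearest HMGA2 peak was 6123 bp away. For all further peaks, where a pair of scores is given, the γ-H2AX score stands before the ATM score. The second lay 13862 bp from the predicted gene Gm13533 on chromosome 2, with scores of 96.9 for γ-H2AX and 108.8 for ATM. The third lay on chromosome Y, 15505 bp from Vmn2r-ps140, with 85.1 and 76.9. The fourth, 5335 bp from Gm49060 on chromosome 14, had the highest γ-H2AX score of all, 157.9, and an ATM score of 73.8. Among the 10 highest, 1 lay inside Greb1, an estrogen-regulated gene of chromosome 12 (74.0 and 70.1). Others lay 109044 bp from Gm8797, 13406 bp from Ccng2, a cyclin G gene, 12722 bp from Gm33272 on chromosome Y and 65572 bp from Gm33039 on chromosome X. None of the 10 touched a window of either deposited promoter list.

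Most ATM-sharing peaks lay where γ-H2AX peaks lay in general, and the differences were small. Of them, 8.75% (276 peaks) lay within 1 kb of an end of any annotated gene, against 7.79% of unshared peaks. The difference was 0.96 percentage points with a 95% Newcombe interval of 0.012 to 2.01. Within classes of width it ran from −1.16 to 3.10 points, and every interval held 0. At ends of protein-coding genes the shares were 4.60% and 4.37%, a difference of 0.23 points (−0.45 to 1.03). With all 3 lists cut to scores of 30 or more, 102 peaks met the rule, and the difference at ends of any gene was −1.06 points (−4.91 to 5.83). Only 89 of the ATM-sharing peaks had both scores of at least 30. The rest of the 102 touched an HMGA2 peak with a score under 30. Inside any gene lay 53.9% of ATM-sharing and 54.3% of unshared peaks, and inside a protein-coding gene 44.2% and 46.1%, a difference of −1.88 points (−3.63 to −0.12). By class of width, the interval of this difference left out 0 above 250 bp alone (−9.44, −16.0 to −2.62), and the intervals of the 4 narrower classes held 0. With scores of 30 or more in all 3 lists, the difference inside any gene was −13.0 points (−22.3 to −3.30). Genes of long non-coding RNA held 10.0% and 9.30%. Genes of 500 kb or more held 6.53% and 7.10%, a difference of −0.57 points (−1.39 to 0.36). Of ATM-sharing peaks 6.41% lay over 100 kb from any gene, against 6.03%. The deposited γ-H2AX promoter list held 1.84% (58 peaks) and 1.78%, a difference of 0.06 points (−0.36 to 0.60).

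Around transcription starts, which were known for genes outside chromosome 18, the distribution was also close to that of unshared peaks. Within 1 kb upstream of a start lay 50 of 3035 ATM-sharing peaks (1.65%), against 1.62% of unshared peaks, and within 1 kb downstream 53 (1.75%), against 1.72%. Within 10 kb upstream the shares were 10.4% and 9.56%, and within 10 kb downstream 11.5% and 11.7%. Each interval of ATM-sharing peaks held the share of unshared peaks.

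Pseudogenes, a position counted after the values were seen, held a higher share. They contained 53 ATM-sharing peaks (1.68%, 1.29 to 2.19%), against 0.951% of unshared peaks, a difference of 0.73 points (0.33 to 1.24). With γ-H2AX and ATM peaks of 250 bp or less alone, an alternative added after the data were seen, the difference was 0.28 points (−0.07 to 0.76). Without peaks over 500 bp or with scores of 50 or more, also chosen after the data were seen, it was 0.42 points (0.06 to 0.90). The highest-ranked ATM-sharing peak in a pseudogene lay in Gm19193 on chromosome 9 (scores 70.6 for γ-H2AX and 41.2 for ATM). The next lay in Mup-ps1 on chromosome 4 (35.3 and 35.3), a pseudogene of the major urinary protein cluster, and in Gm18728 on chromosome 1 (35.3 and 41.2). Pseudogenes resemble other loci in sequence, so the placement of their reads is uncertain.

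**Figure D3:**
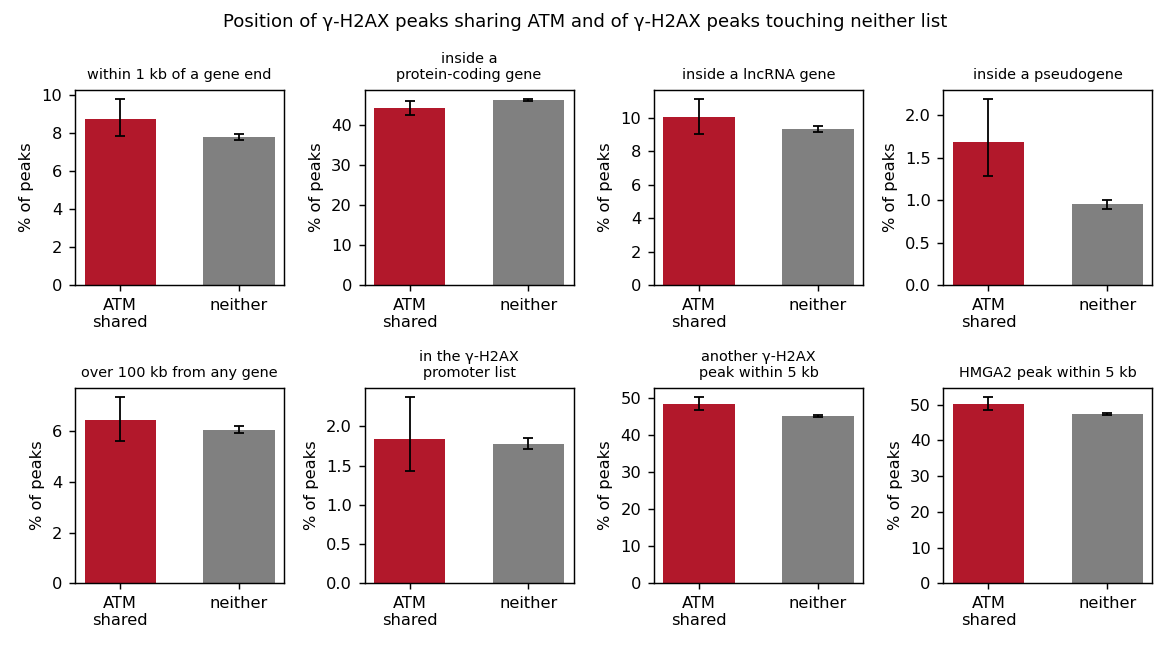
Share of peaks in percent (vertical axes, each from 0) with the named position, for ATM-sharing γ-H2AX peaks (red, n = 3153) and unshared γ-H2AX peaks (grey, n = 117725); bars on the columns are 95% Wilson intervals of counting error. The columns are of similar height for genes and promoters, with 1.68% against 0.951% in pseudogenes and 50.3% against 47.3% for an HMGA2 peak within 5 kb.

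ATM-sharing peaks were not remote from HMGA2, although none touched an HMGA2 peak. Their nearest HMGA2 peak was a median of 4969 bp away, against 5458 bp for unshared peaks. An HMGA2 peak lay within 5 kb of 50.3% of them and of 47.3% of unshared peaks, a difference of 3.02 points (1.25 to 4.79). Within 1 kb the shares were 14.6% and 13.7%, a difference of 0.88 points (−0.33 to 2.17), and within 200 bp 3.43% and 3.19%. Within classes of width, from the narrowest to the widest, the difference within 5 kb was 1.79, 4.82, 2.97, 1.28 and −0.82 points, and only the interval of peaks of 151 to 170 bp (1.69 to 7.94) left out 0. With scores of 30 or more in all 3 lists it was 3.49 points (−1.44 to 11.2). Only 3 ATM-sharing peaks lay 100 kb or more from any HMGA2 peak. Before the rule was applied, γ-H2AX peaks with ATM touched an HMGA2 peak in 5.82% of cases (195 of 3348), against 3.19% of those without ATM (3874 of 121599). The rule uses these same overlaps, and both shares were not split by width, so they are a description. The lack of an HMGA2 peak means that none passed a p of 0.01 there. It does not show that HMGA2 was absent.

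They also lay in neighbourhoods with more γ-H2AX peaks and more of each other. Another γ-H2AX peak lay within 5 kb of 48.4% of ATM-sharing and 45.1% of unshared peaks, a difference of 3.33 points (1.56 to 5.09). By class of width it was 4.25, 3.27, 2.53, 3.22 and, above 250 bp, −0.82 points (−7.61 to 5.92), and the intervals of the 3 widest classes held 0. With scores of 30 or more in all 3 lists it was 2.03 points (−2.38 to 9.36). Of the 4059 γ-H2AX peaks within 10 kb of another ATM-sharing peak, 176 were ATM-sharing themselves (4.34%, 3.75 to 5.01%), against 2.46% of the other γ-H2AX peaks (2.38 to 2.55%). They formed 84 groups with neighbours at most 10 kb apart, of which 7 held 3 or more. A single ATM peak can touch neighbouring γ-H2AX peaks and so make each of them ATM-sharing, as at Zfp609, Gm13605 and Dnajc1. Part of this grouping thus follows from the rule, and such cases were not set apart. The same cases also count in the share with another γ-H2AX peak within 5 kb.

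The largest group held 4 ATM-sharing peaks over chr1:171063628-171067294, in and beside Fcgr3, which encodes a receptor for the constant part of immunoglobulin G. This stretch also carries the tRNA genes n-TEctc5, n-TGtcc1, n-TDgtc3, n-TLcag6 and n-TGgcc12 and the microRNA gene Mir6546. The peaks were wide, 489, 887, 529 and 617 bp, with γ-H2AX scores of 31.3, 34.4, 32.1 and 33.5 and ATM scores of 39.8, 26.9, 27.3 and 38.9. A further pair lay at n-TEctc7 and n-TLcag8 in the same tRNA cluster. This made tRNA genes a position worth counting after these values were seen. Within 1 kb of any of the 408 tRNA genes lay 7 ATM-sharing peaks (0.222%, 0.108 to 0.458%), against 0.0731% of unshared peaks (86 peaks), and 6 of the 7 were in this cluster. The seventh lay 349 bp from n-TRacg3 on chromosome 3. Copies of tRNA genes are alike in sequence, and read placement among them is uncertain. Other groups of 3 lay near Erdr1 on chromosome X, at Gm31458 on chromosome 15, at Vmn2r-ps16 and Zfp992 on chromosome 4, at Il13ra2 on chromosome X, near Gm52481 on chromosome Y and in Pde8a on chromosome 7.

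By chromosome the share of ATM-sharing peaks was even among the autosomes, between 2.19% on chromosome 11 and 2.82% on chromosome 1. On chromosome X it was 2.37%, although that chromosome had 131 ATM peaks per 100 γ-H2AX peaks, against 88.6 to 100.2 on the autosomes. On chromosome Y 6 of only 100 γ-H2AX peaks were ATM-sharing (6.00%, 2.78 to 12.5%). Of these 6, 4 lay between positions 90735607 and 90768068, beside Gm52481 and Mid1-ps1, and those at Vmn2r-ps140 and Gm33272 were among the 10 highest-ranked of all.

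**Figure D4:**
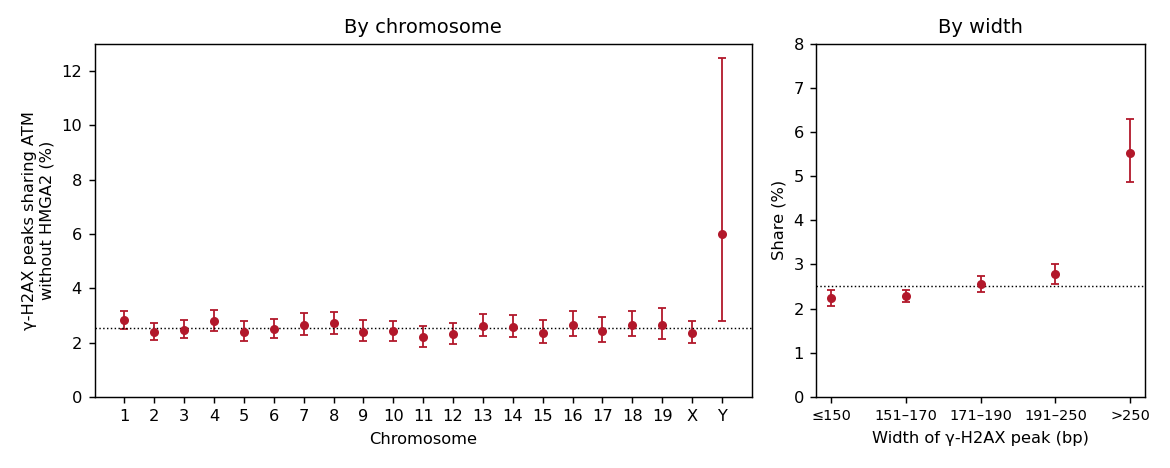
Left, ATM-sharing peaks as a percentage of the γ-H2AX peaks of each chromosome; right, the same by width of the γ-H2AX peak in bp. Points are shares, bars are 95% Wilson intervals and the dotted line is the share over all peaks, 2.52%; the autosomes and X lie between 2.19% and 2.82%, while Y (6 of 100 peaks) and peaks above 250 bp (5.54%) lie higher.

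At the ends of genes, 157 of 21887 protein-coding genes (0.717%) had an ATM-sharing peak within 1 kb, against 5104 (23.3%) with any γ-H2AX peak there. Of the 125 with a known start, 74 had it within 1 kb of that start. The other 51 had it only at an annotated end, over 1 kb from the known start. That end was not always the opposite one, as at Itpa and Cdc20b, whose known starts lay inside the annotated gene. The highest-ranked was Sema3c, which encodes a secreted semaphorin that guides axons and migrating cells. Its peak (chr5:17574084-17574189) lay 679 bp outside the start, with scores of 36.5 for γ-H2AX and 43.3 for ATM, 106 shared bases and the nearest HMGA2 peak 1392 bp away. Ptgs2, which encodes the inducible cyclooxygenase of prostaglandin synthesis, had a peak (chr1:150099346-150099508) 603 bp from its start with 36.8 and 31.7, which also lay at the opposite-strand gene Ptgs2os. Id2 encodes an inhibitor of basic helix-loop-helix factors that responds to BMP signals. Its peak (chr12:25096796-25096913) lay 763 bp from the start with 29.8 and 26.9. All these peaks stood in both deposited promoter lists.

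Several of the other high-ranked peaks lay within reach of the ends of a pair of neighbouring genes. Fancm, which encodes a translocase of the Fanconi anaemia pathway, and its divergent neighbour Fkbp3, a prolyl isomerase gene, shared a peak (chr12:65074695-65075030) with scores of 32.9 and 25.9, 740 bp inside Fancm. Shld3 encodes a subunit of shieldin, which limits resection of broken ends, and overlaps Trappc13. Both had the same peak, with 27.8 and 26.1, 909 bp from the start of Shld3. Esco2, an acetyltransferase gene of sister chromatid cohesion, and Pbk, a mitotic kinase gene, flanked a peak with 26.4 and 29.8. Cad, which encodes the enzyme that opens pyrimidine synthesis, and Atraid shared a peak with 26.4 and 28.5.

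Of the remaining 20 highest-ranked genes, Slc25a28, a mitochondrial iron carrier gene, had a peak 383 bp from its start (37.1 and 28.0), and Gtf2a1 the peak whose window is printed above (26.2 and 28.3). Fzd2, a Wnt receptor gene, had one 512 bp beyond an end (30.1 and 27.9). Masp2, a complement protease gene, and Unc45b, which encodes a myosin chaperone of muscle, had theirs at the end away from the start, with 28.5 and 31.7 and with 30.7 and 28.1. The peak near Unc45b shared 2 bp with ATM. Fcgr3 was described with the tRNA cluster. A530032D15Rik (40.02 and 32.9, 995 bp wide), Zfp809 (39.8 and 28.3) and Vmn2r129 (27.4 and 51.8) belong to families with near-identical copies, and their values are uncertain for that reason.

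The authors' γ-H2AX promoter list held 58 ATM-sharing peaks and their ATM promoter list 44. In both lists were 41, at 51 genes. Beside those named above these included Bcl2l13, a gene of a mitochondrial receptor of the Bcl-2 family (26.1 and 24.6), Slc39a2, a zinc transporter gene (23.1 and 25.2), and Dennd2a, a gene of a Rab exchange factor (23.1 and 29.8). Divergent or adjacent pairs shared 1 peak each, among them Ganab, which encodes a glucosidase of the endoplasmic reticulum, with Ints5, another Integrator subunit (24.3 and 22.3). Of the 41, the peak at Rpl11, a ribosomal protein gene, was among those closest to HMGA2, with 83 bp between it and the nearest HMGA2 peak (21.5 and 20.8). Gene pairs mean that a peak cannot be given to 1 of the 2 promoters.

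Over whole genes with 1 kb on either side, 1266 of 21887 protein-coding genes (5.78%) held an ATM-sharing peak, against 13014 (59.5%) with any γ-H2AX peak. Most, 1090, held 1, and 137 held 2. The share of γ-H2AX peaks that were ATM-sharing was 2.99% in genes under 10 kb, 2.29% from 10 to 50 kb, 2.59% from 50 to 200 kb, 2.36% from 200 to 500 kb and 2.24% from 500 kb, so it had no steady relation to gene length. The genes with the highest counts were long and held many γ-H2AX peaks. Pde4d, which encodes a cyclic AMP phosphodiesterase and spans 1302 kb, held 6 of 116. Kcnq5, a potassium channel gene, held 5 of 37 and Sugct, which encodes a mitochondrial CoA transferase, 5 of 68. The highest counts in shorter genes were at Fcgr3 with 4 of 6 and at Zfp982, a zinc finger gene of a repeated family on chromosome 4, with 4 of 8.

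Genes of TGF-beta and BMP signalling held the highest share of any list with at least 100 γ-H2AX peaks. Of the 326 γ-H2AX peaks in or within 1 kb of the 47 listed genes, 16 were ATM-sharing (4.91%, 3.04 to 7.82%), beside 2.52% over all γ-H2AX peaks. They lay at 12 genes. Smurf2, which encodes a ubiquitin ligase that acts on SMAD proteins, held 3 of its 10 peaks, the highest-ranked inside the gene 48.8 kb from the nearer end (33.7 and 24.1). Smad3, a transducer of TGF-beta signals, and Tgfbr1, its type I receptor, held 2 each. Bmpr1a and Acvr1, which encode type I receptors, held 1 each inside the gene, with scores of 24.97 and 24.2 in Bmpr1a and of 24.0 and 31.9 in Acvr1. Id2 alone had its peak within 1 kb of an end. As 1 of 24 lists and families, with no test over samples, this share is a count and no finding about the pathway.

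DNA damage response genes held 10 of 274 (3.65%, 1.99 to 6.59%), at Bard1, Brip1, Fanca, Fancm, Msh6, Rad51b and Wrn. Bard1, which encodes the partner of BRCA1, had the highest-ranked (49.6 and 33.8), 23.8 kb inside the gene, and Wrn, a RecQ helicase gene, one with 26.7 and 24.7. Wnt genes held 10 of 251 (3.98%, 2.18 to 7.18%), with Fzd2 highest and then Ror1, a receptor gene (26.9 and 27.6), Tcf7l1, a transcription factor gene (28.1 and 23.6), and Gsk3b, a kinase gene (37.3 and 23.3). Insulin, IGF and mTOR genes held 6 of 243 (2.47%), among them Mtor (25.9 and 49.5) and Rptor (28.8 and 22.9), which encode the kinase and a scaffold of one complex. Targets of p53 held 2 of 67, in Zmat3 and Mdm4. Cell cycle genes held 0 of 142, which allows a share of up to 2.11% by 3 counts and 2.63% by the Wilson interval, and the second bound holds the 2.52% over all peaks. Immediate early genes held 0 of 22, which allows up to 13.6% by 3 counts and 14.9% by the Wilson interval. Housekeeping genes held 0 of 33, which allows up to 9.09% and 10.4% by the same bounds.

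Among genes of chromatin and the high mobility group, 7 of 337 peaks (2.08%) were ATM-sharing. They lay in Ctcf, which encodes the insulator protein (26.2 and 26.5), Kmt2a, a histone methyltransferase gene (26.1 and 31.7), Chd2, a remodeller gene (25.5 and 27.1), Hdac2, a deacetylase gene (24.4 and 23.6), Hdac4, Crebbp and Hmga2. The last lies in the gene of HMGA2 itself and was named after its values were seen (chr10:120384743-120384919, 24.2 and 23.1), with the nearest HMGA2 peak 16678 bp away. Fibroblast and matrix genes held 7 of 294 (2.38%), among them Fbn2, a fibrillin gene (32.8 and 28.6), and Col6a3, a collagen gene (26.3 and 25.2). Neuronal genes, which are long, held 20 of 1044 (1.92%, 1.24 to 2.94%). Blood cell genes held 1 of 47, endothelial genes 2 of 47 and epithelial genes 0 of 19, which allows up to 15.8% by 3 counts and 16.8% by the Wilson interval. Peak lists carry no expression, so the labelled cell type could not be checked against its markers.

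Of gene families, Zfp zinc finger genes held 34 of 940 (3.62%, 2.60 to 5.01%), spread over 25 of 397 genes, and many of these are near-identical copies, so their counts are uncertain. Those in Zfp609 (31.1 and 30.2), Zfp982 (31.6 and 43.6) and Zfp809 were the highest-ranked. Cadherins and protocadherins held 5 of 426 (1.17%, 0.502 to 2.72%), solute carriers 28 of 1017 (2.75%) and potassium channels 14 of 450 (3.11%). Collagens held 7 of 301 (2.33%) and semaphorins 5 of 197 (2.54%). The semaphorin genes were Sema3c, Sema3a and Sema3d. Olfactory receptors held 3 of 101, vomeronasal receptors 2 of 146, Hox genes 1 of 27, in Hoxb3, and keratins 0 of 17, which allows up to 17.6% by 3 counts and 18.4% by the Wilson interval.

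**Figure D5:**
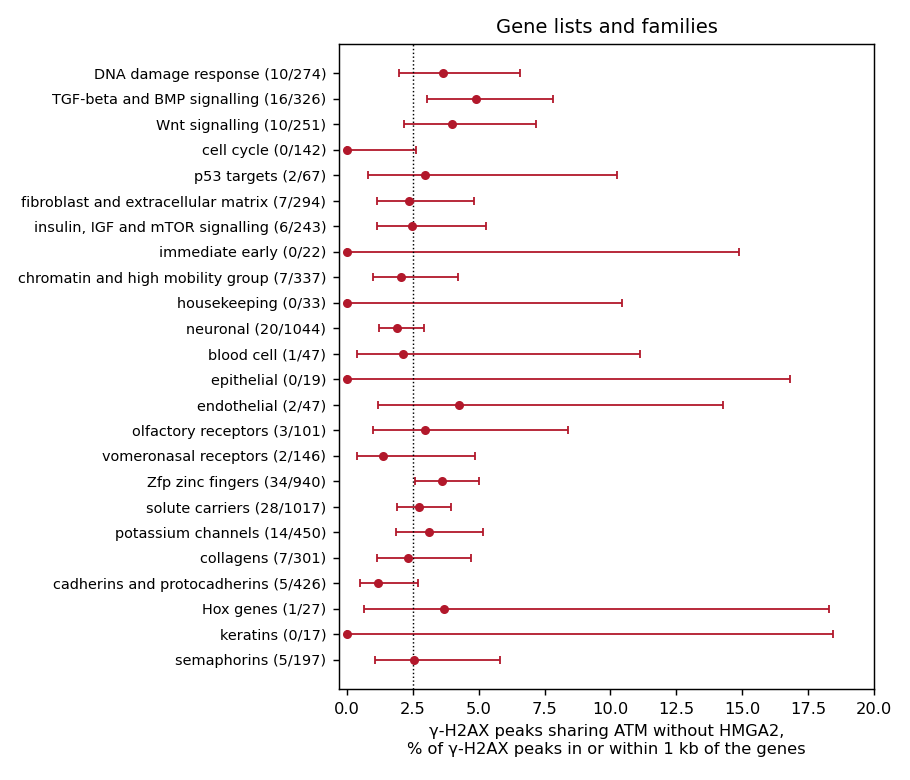
Share of γ-H2AX peaks in or within 1 kb of the genes of each list that were ATM-sharing, in percent, with ATM-sharing and all γ-H2AX peaks of the list in parentheses. Points are shares, bars 95% Wilson intervals of counting error and the dotted line the share over all peaks, 2.52%; TGF-beta and BMP signalling (16 of 326) lies highest among lists of over 100 peaks and cadherins (5 of 426) low.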

How the data were processed

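ChIP-seq of HMGA2, γ-H2AX and ATM in Hmga2 wild-type MEF gave 1 peak list per antibody. Per the labels, the authors called peaks with MACS14 without its model, at a p of 0.01 and a shift size of 30 bp. The deposited score is −10 times the log10 of p, so 20 is its minimum. The authors also deposited promoter region lists (unit other, start and end only), whose criteria, like the control of the peak calls, are not given in the sources used here. The submitters' processing notes name Trimmomatic, Bowtie2, SAMtools, MACS, HOMER and mm10, without versions. Depth was not given, so low scores bound how firmly any peak is placed.

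Overlaps of at least 1 bp were computed with Python 3.11.15 and pandas 2.3.3, tested on simulated data and checked against bedtools 2.31.1 (3153 in both). Shares have 95% Wilson intervals and differences Newcombe intervals. Genes and promoters come from RefSeq (GRCm38.p6), 49943 genes, without exons, and a gene named is one whose span or 1 kb flank the peak touches, or else the nearest. Promoter windows hold none on chromosome 18. Named genes were the 20 highest at ends, the 10 highest peaks, up to 4 of each list and up to 20 in both promoter lists, ranked by the lower of the γ-H2AX and ATM scores. The peaks, lists and families were chosen with earlier results of these data known. A HOMER histogram was not used. One of the 10 highest peaks is not reported here.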

Additional observations from a re-analysis of the deposited data

How the results depend on the processing

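No paired analysis was possible because each antibody had 1 library, and no library could be left out. Of 46 values under other settings, 35 stayed within 1.5 times the reported count or inside the reported interval, 10 moved outside it and 1 changed sign. The cause was not tested. The number of ATM-sharing peaks was 2006 with at least 50% of the shorter peak shared and 102 with scores of 30 or more in all 3 lists. The number of protein-coding genes with such a peak near an end was 91 and 4 under these settings, 89 with a window of 500 bp and 527 with 5 kb. The gene end difference was −1.06 points (−4.91 to 5.83) with scores of 30 or more, the reverse of 0.96 points, and 0.0043 points with a window of 5 kb. Its interval also held 0 with 50% of the shorter peak shared, with no HMGA2 peak within 1 kb, with peaks of 250 bp or less, at protein-coding genes and without wide or high-scoring peaks. With a window of 500 bp the gene end difference was 1.13 points (0.37 to 2.00), and that interval left out 0. The difference inside genes was −13.0 points (−22.3 to −3.30) with scores of 30 or more. That for another γ-H2AX peak was 1.26 points within 20 kb. With scores of 30 or more, the intervals of this difference within 5 kb (2.03, −2.38 to 9.36) and of that for HMGA2 (3.49, −1.44 to 11.2) held 0. Without peaks over 500 bp or with scores of 50 or more, an alternative chosen after the data were seen, 3064 peaks remained, the HMGA2 difference within 5 kb was 3.24 points and ATM-sharing peaks near another one were 3.79%. Most scores lie close to the threshold, and depth is unknown.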
